A study of Mus musculus with 55 samples.

Results

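The 34 genes described here encode molecular chaperones and their partners. They were taken by gene symbol from the 43432 genes of the deposited table, by protein family, and all 34 were found. They fall into 10 classes: 6 cytosolic Hsp70 and Hsp110 proteins, 2 Hsp70 proteins of the endoplasmic reticulum and mitochondria, 3 Hsp90 proteins, 2 subunits of the mitochondrial chaperonin, 3 J domain proteins, 3 cochaperones of Hsp70 and Hsp90, 2 small heat shock proteins, the transcription factor Hsf1, 8 subunits of the cytosolic chaperonin CCT (also called TRiC) and 4 subunits of prefoldin. All 34 passed the filter on low counts, which left 21113 genes to be tested.

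The libraries came from the white fat around the gonad of C57BL/6 mice at 6 months, 1 library per labelled sample, 55 in all. The mice were wild type (WT) littermates or carried 1 knock-in copy of Htt, with lines named after the CAG repeat: Q20 (the shortest), then Q80 and Q92, then Q111 and Q140, and Q175 (the longest). Htt is the gene mutated in Huntington's disease. There were 4 male and 4 female libraries per genotype, except that WT had 4 male and 3 female ones. WT and Q20 mice shared housing, while mice of every other genotype lived with their own kind, so Q175 and WT also differ in housing. Each repeat length is a single heterozygous knock-in model, and the tissue was whole fat, in which fewer cells of a type and less RNA per cell cannot be told apart.

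Library totals ranged over 35094442 to 51363637 counts. Library numbers in the labels run on without a gap, except for that of Q20 female 2. The labels name no blocks, and the numbers were parted here into a pair of blocks where those of Q175 and WT begin. All 15 Q175 and WT libraries are in one, 39 of the other 40 are in the other, and Q20 female 2 is in neither, so block and genotype cannot be told apart in Q175 against Q20, in Q20 against WT or in the trend over repeat length. Adipocyte markers were present in every library (Fabp4 median 12094 CPM, Adipoq median 3575 CPM, where CPM scales counts to the library's depth). In 14 male libraries the markers of epididymis and testis added up to 100 CPM or more, and these include all 4 Q175 males and no WT male. In 2 Q140 libraries, female 1 and male 4, the sex genes Xist and Ddx3y contradicted the label. Htt, the targeted gene, averaged 57.4 ± 2.74 CPM in Q175, against 66.1 ± 9.08 in WT and 58.5 ± 5.07 in Q20 (SD, n = 8, 7 and 8), and means of the other lines lay between 45.5 ± 5.03 (Q140) and 53.3 ± 3.13 (Q80).

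Chaperones bind unfolded or partly folded proteins and release them for folding or disposal. Hsp70 proteins take up short greasy stretches under the control of J domain proteins, Hsp90 acts later on clients such as kinases and nuclear receptors, and the cochaperone Stip1 links the Hsp70 and Hsp90 machines. The barrel-shaped chaperonins enclose a whole protein: CCT folds actin and tubulin, which prefoldin delivers to it, and the Hspd1 and Hspe1 pair does so in the mitochondrial matrix. Several of these genes are induced through Hsf1 when proteins misfold, and expanded huntingtin is a known chaperone client.

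Levels differed widely between members. Per transcript length, in FPKM (fragments scaled to transcript length and library depth, the authors' values), the constitutive Hsp70 Hspa8 was highest, with 477 ± 106 FPKM over all 55 libraries (mean ± SD). Hsp90ab1, the constitutive cytosolic Hsp90, followed with 331 ± 51.4 FPKM. The lowest were the stress-inducible Hsp70 genes, Hspa1b with 6.22 ± 3.53 FPKM and Hspa1a with 3.08 ± 1.85 FPKM. Reads may be split between these near-identical copies. Of the 8 CCT subunits, which sit in equal number in the assembled ring, the medians lay between 45.4 FPKM (Cct6a) and 81.8 FPKM (Cct5). Tcp1 had a median of 80.2 FPKM, and its highest values, 303 and 181 FPKM, came from Q92 males rich in testis transcripts. The prefoldin subunits were less even, with Pfdn5 at 139 ± 26.8 FPKM, Pfdn1 at 29 ± 3.95, Pfdn2 at 26 ± 3.72 and Pfdn4 at 11 ± 1.99 FPKM.

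In fat of Q175 mice, the line with the longest repeat, 8 of the 34 members fell against WT and none rose (edgeR quasi-likelihood test, Benjamini-Hochberg adjusted p under 0.05 over all genes tested). They were the 4 prefoldin members, the CCT subunits Cct2 and Cct8, the mitochondrial Hspe1 and the J domain protein Dnajc7. Over all 21113 genes 10.4% were called, 7.1% lower and 3.34% higher. The members are all well measured, so a background with a floor on level was added after the results were seen. Among the 10427 genes whose mean CPM was at least that of the lowest member, 12.2% were called lower and 4.22% higher, against 23.5% and 0% of the members. The floor does not match levels above it: the members' means ran from 8.22 CPM to 1078 CPM (Hspa8). The median log2 difference was -0.16 over the members, -0.05 over those 10427 genes and 0.009 over all genes tested.

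Against Q20, the line with the shortest repeat, 14 members fell in Q175 and none rose, where 14.2% of all genes were called, 9.7% lower and 4.54% higher. At or above the lowest member's CPM 17% of genes were called lower, against 41.2% of the members. The added genes were other CCT subunits, Dnaja1 and the cochaperones Stip1 and Ahsa1, while Dnajc7 missed the threshold. Both comparisons use the same 8 Q175 libraries, and the second one also compares library blocks.

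**Figure D1:**
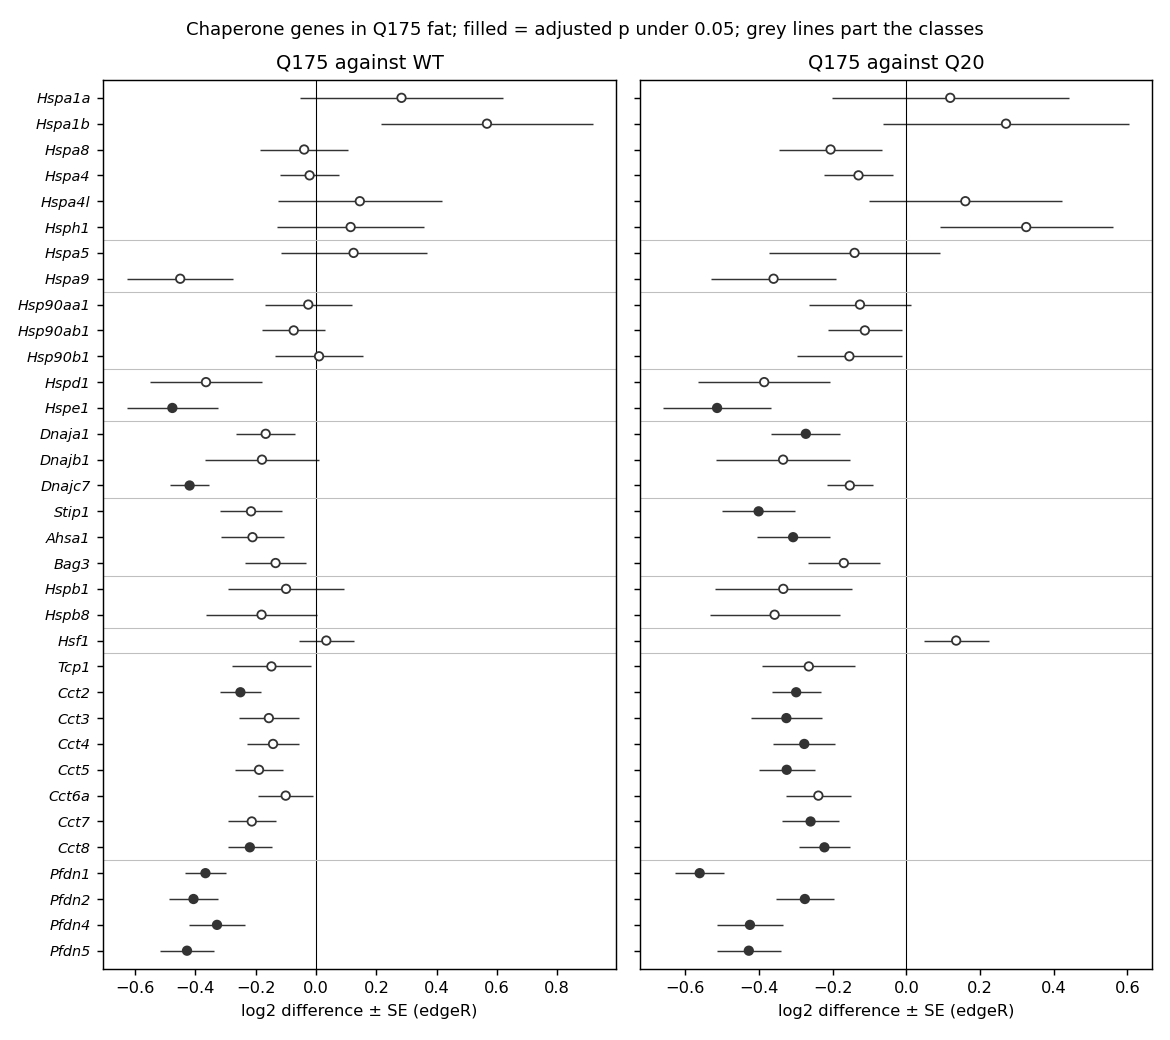
Log2 difference ± SE (edgeR) of each member in Q175 against WT (left) and Q175 against Q20 (right), with members down the page by class and filled points where the adjusted p was under 0.05. All 4 prefoldin members are filled on both sides, and no filled point lies to the right of 0.

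Prefoldin is a complex with tentacle-like arms that holds nascent actin and tubulin and passes them to CCT. All 4 prefoldin members fell in Q175 against both WT and Q20. Pfdn1 had a lowest, median and highest level of 20.8, 22.7 and 25.1 CPM in Q175, against 26.8, 29.1 and 33.9 CPM in WT and 30.2, 33.5 and 39.6 CPM in Q20. The Q175 libraries lay below every library of both other genotypes. Pfdn1 fell by 0.37 ± 0.07 (log2 ± SE; adjusted p = 0.000877) against WT and by 0.56 ± 0.07 against Q20 (adjusted p = 3.29e-07). Pfdn2 had a lowest, median and highest level of 20.6, 23.7 and 24.8 CPM in Q175, against 25.6, 31.5 and 36 CPM in WT and 24.9, 27.6 and 33.6 CPM in Q20. Pfdn2, which like Pfdn1 is a beta-type subunit in the ring, fell by 0.41 ± 0.08 (log2 ± SE; adjusted p = 0.00166) against WT and by 0.28 ± 0.08 against Q20 (adjusted p = 0.0142), and its Q175 libraries too lay below every library of both.

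Pfdn5 had a lowest, median and highest level of 80.1, 82.5 and 97.3 CPM in Q175, against 90.6, 112 and 140.3 CPM in WT and 105, 112 and 127 CPM in Q20. Pfdn5, an alpha-type subunit also known as the Myc-binding protein MM-1, fell by 0.43 ± 0.09 (log2 ± SE; adjusted p = 0.0022) against WT and by 0.43 ± 0.09 against Q20 (adjusted p = 0.000593). Pfdn4 had a lowest, median and highest level of 5.48, 6.27 and 6.72 CPM in Q175, against 5.79, 8.1 and 9.24 CPM in WT and 7.7, 8.45 and 9.03 CPM in Q20. Pfdn4 fell by 0.33 ± 0.09 (log2 ± SE; adjusted p = 0.0183) against WT and by 0.42 ± 0.09 against Q20 (adjusted p = 0.000952). For both genes the Q175 libraries overlapped the lower WT libraries and lay below every Q20 library. The Pfdn4 call against WT was lost in 5 of 15 fits that left out 1 library. In the fit of all libraries the male effect on Pfdn1 against WT was -0.37 ± 0.09 and the female effect -0.37 ± 0.10. By sex the edgeR fit of all libraries called 3 members against WT in males and 0 in females, where 1.48% and 0.0805% of all genes were called lower. At an unadjusted p under 0.05 there were 9 and 8, and no other tool was run by sex. With the libraries of each sex fitted alone, members were called in females and none in males, so the split by sex depended on the fit. The share of all genes called in those separate fits is not given here. No member was called for a difference of the Q175 effect between males and females (edgeR, 0 of 34 at an adjusted p under 0.05, 0 at an unadjusted p under 0.05, and 0 by DESeq2 and by voom), where 0.0284% of all genes were.

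**Figure D2:**
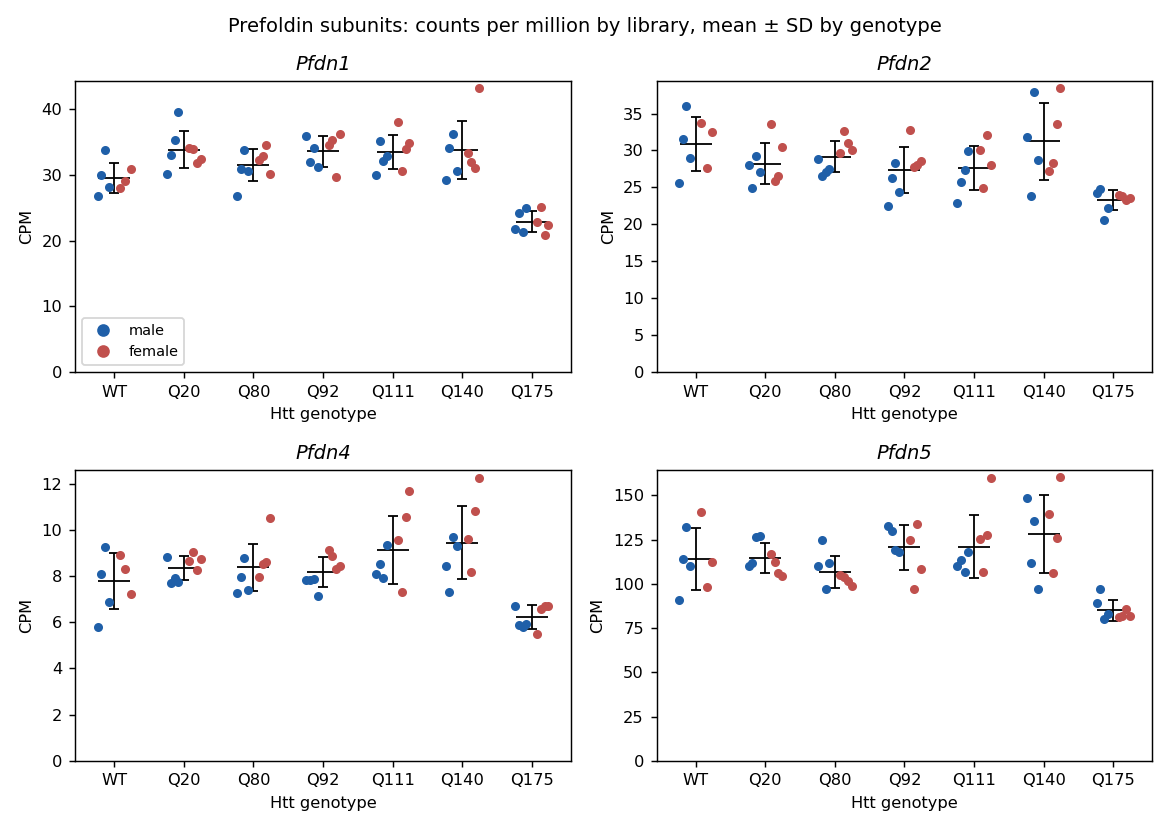
CPM of the 4 prefoldin members in every library by genotype, with males (blue) left of females (red), and mean ± SD by genotype as black bars. The 8 Q175 libraries of Pfdn1 lie between 20.8 and 25.1 CPM, below every library of the other genotypes.

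CCT is the ring of 8 different subunits to which prefoldin delivers its cargo. All 8 had negative log2 differences in Q175 against WT, of -0.25 to -0.10, of which 2 passed the test, and against Q20 of -0.33 to -0.22, of which 6 did. Cct2 had a lowest, median and highest level of 113, 122 and 138 CPM in Q175, against 128, 146 and 161 CPM in WT and 133, 152 and 164 CPM in Q20. Cct2 fell by 0.25 ± 0.07 (log2 ± SE; adjusted p = 0.0141) against WT and by 0.30 ± 0.07 against Q20 (adjusted p = 0.00141). The Q175 libraries were mostly the lower ones and overlapped both groups. Cct8 had a lowest, median and highest level of 98.8, 104 and 118 CPM in Q175, against 114, 121 and 132 CPM in WT and 108, 123 and 138 CPM in Q20. Cct8 fell by 0.22 ± 0.07 (log2 ± SE; adjusted p = 0.0424) against WT and by 0.22 ± 0.07 against Q20 (adjusted p = 0.0245), again with overlap. The Cct8 call against WT held in 2 of 15 fits that left out 1 library, and on the authors' FPKM its difference was 0.009.

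Cct5 had a lowest, median and highest level of 113, 131 and 146 CPM in Q175, against 125, 157 and 163 CPM in WT and 142, 164 and 179 CPM in Q20. Cct5 fell by 0.32 ± 0.08 (log2 ± SE; adjusted p = 0.00231) against Q20, and against WT its difference was -0.19 ± 0.08 (adjusted p = 0.118). Cct3 had a lowest, median and highest level of 82.1, 86.5 and 102 CPM in Q175, against 73.1, 95.3 and 115 CPM in WT and 90.5, 109.6 and 131 CPM in Q20. Cct3 fell by 0.33 ± 0.10 (log2 ± SE; adjusted p = 0.0164) against Q20, with a difference of -0.16 ± 0.10 against WT (adjusted p = 0.342). Both genes overlapped between the groups. Cct4 had a lowest, median and highest level of 107, 122 and 136 CPM in Q175, against 115, 133 and 151 CPM in WT and 128, 151 and 163 CPM in Q20. Cct4 fell by 0.28 ± 0.08 (log2 ± SE; adjusted p = 0.0192) against Q20 and was at -0.14 ± 0.09 against WT (adjusted p = 0.314). Cct7 had a lowest, median and highest level of 95.1, 101 and 114 CPM in Q175, against 102, 120.1 and 132 CPM in WT and 108, 124 and 132 CPM in Q20. Cct7 fell by 0.26 ± 0.08 (log2 ± SE; adjusted p = 0.0169) against Q20 and was at -0.21 ± 0.08 against WT (adjusted p = 0.0796). For Cct4 and Cct7 too the Q175 libraries overlapped both groups. Leaving out 1 library ended the Cct4 call against Q20 in 5 of 16 fits and that of Cct8 in 6 of 16. Tcp1 had 139, 152 and 167 CPM in Q175 (lowest, median and highest), against 156, 169.8 and 184 CPM in WT and 163, 186 and 199 CPM in Q20. Tcp1 was not called, with -0.15 ± 0.13 against WT (adjusted p = 0.526) and -0.26 ± 0.13 against Q20 (adjusted p = 0.165), and its SE was 0.131 against WT where that of Cct2 was 0.0686.

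The mitochondrial chaperonin consists of the Hspd1 barrel (Hsp60) and its lid Hspe1 (Hsp10). Hspe1 had a lowest, median and highest level of 42.4, 57.8 and 66.4 CPM in Q175, against 55.9, 71.2 and 97.1 CPM in WT and 58.5, 74.4 and 106 CPM in Q20. Hspe1 fell by 0.48 ± 0.15 (log2 ± SE; adjusted p = 0.0353) against WT and by 0.51 ± 0.15 against Q20 (adjusted p = 0.013). The groups overlapped, and the call against WT held in 4 of 15 fits that left out 1 library. Hspd1 had a lowest, median and highest level of 222, 281 and 318 CPM in Q175, against 279.7, 346 and 426 CPM in WT and 302, 348 and 422 CPM in Q20. Hspd1 was not called, with -0.37 ± 0.19 against WT (adjusted p = 0.216) and -0.39 ± 0.18 against Q20 (adjusted p = 0.153). Hspa9, the mitochondrial Hsp70, had 352, 399 and 475 CPM in Q175, against 465.6, 509 and 691 CPM in WT and 401, 520.2 and 667 CPM in Q20. Its difference was -0.45 ± 0.18 against WT (adjusted p = 0.093) and -0.36 ± 0.17 against Q20 (adjusted p = 0.159), and neither passed.

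The Hspe1 and Hspd1 genes lie head to head and share a promoter, and their RefSeq promoters (GRCm38.p6, 250 bases before to 50 after the start) overlap by 285 bases. The 27 members with a promoter in that table were searched for the heat shock element bound by Hsf1, as a pair of units (GAANNTTC or TTCNNGAA) or as a triplet (GAANNTTC followed by NNGAA, or TTCNNGAA followed by NNTTC), on both strands. Any member entry on a single excluded chromosome was set aside before the search, while the count over all genes kept that chromosome. A triplet contains a pair, so the counts overlap. A pair was present in 12 of the 27 members (44.4%) and in 17% of the 27025 genes with a promoter there, and a triplet in 3 members (Hspd1, Hspe1 and Hsph1; 11.1%) and in 0.662% of all genes. The Hspd1 and Hspe1 triplet is the same stretch read from opposite strands, so it counts for both genes. Hspa1a and Hspa1b likewise hold the same pair in near-identical promoters. Of the prefoldin subunits, Pfdn2, Pfdn4 and Pfdn5 held neither a pair nor a triplet in this window. Members not searched were Pfdn1, Cct4, Hspa8, Hspa9, Hsp90aa1, Hsp90ab1 and Hsf1. The promoters below show a triplet in a member that fell (Hspe1), a pair and a triplet in members that were not called (Hspa1a, Hsph1), and none in a member that fell (Pfdn5). The Hsph1 promoter is that of one of its annotated starts. Capitals mark the element, and all are 5′ to 3′ on the gene's strand.
Hspe1 (chr1:55087898-55088197, plus strand): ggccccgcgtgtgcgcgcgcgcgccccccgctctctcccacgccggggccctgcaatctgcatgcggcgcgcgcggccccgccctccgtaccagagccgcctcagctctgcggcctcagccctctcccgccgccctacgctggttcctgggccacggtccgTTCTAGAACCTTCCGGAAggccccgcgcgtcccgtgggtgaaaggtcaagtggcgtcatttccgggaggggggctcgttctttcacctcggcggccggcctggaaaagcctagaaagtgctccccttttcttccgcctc
Hspa1a (chr17:34972107-34972406, minus strand): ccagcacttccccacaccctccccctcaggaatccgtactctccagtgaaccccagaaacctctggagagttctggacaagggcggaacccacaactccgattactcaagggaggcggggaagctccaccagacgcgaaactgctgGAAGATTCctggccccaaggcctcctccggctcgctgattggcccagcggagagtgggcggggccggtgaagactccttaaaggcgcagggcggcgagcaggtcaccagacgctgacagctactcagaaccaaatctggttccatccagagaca
Hsph1 (chr5:149636266-149636565, minus strand): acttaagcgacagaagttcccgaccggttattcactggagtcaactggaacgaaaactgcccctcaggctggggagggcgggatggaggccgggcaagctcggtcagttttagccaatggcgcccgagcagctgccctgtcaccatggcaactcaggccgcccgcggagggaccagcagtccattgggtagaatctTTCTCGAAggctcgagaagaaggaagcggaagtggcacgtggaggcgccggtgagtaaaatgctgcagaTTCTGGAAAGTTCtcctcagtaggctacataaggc
Pfdn5 (chr15:102325866-102326165, plus strand): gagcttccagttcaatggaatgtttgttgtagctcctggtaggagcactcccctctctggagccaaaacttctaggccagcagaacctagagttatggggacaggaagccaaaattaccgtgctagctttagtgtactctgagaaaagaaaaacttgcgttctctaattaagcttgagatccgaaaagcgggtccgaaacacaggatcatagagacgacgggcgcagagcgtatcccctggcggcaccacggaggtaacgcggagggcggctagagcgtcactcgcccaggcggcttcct

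J domain proteins deliver clients to Hsp70 and start its ATPase. Dnajc7 had a lowest, median and highest level of 87.2, 91.2 and 102 CPM in Q175, against 101, 124 and 147 CPM in WT and 96.1, 102 and 113 CPM in Q20. Dnajc7, which binds both Hsp70 and Hsp90, fell by 0.42 ± 0.06 (log2 ± SE; adjusted p = 0.000255) against WT, with only a slight overlap between the groups. Against Q20 its difference was -0.15 ± 0.06 (adjusted p = 0.0936), and Q20 itself lay below WT by 0.27 ± 0.06 (adjusted p = 0.0309). Dnajc7 was the 1 member called in Q20 against WT, where 0.753% of all genes were, 0.403% lower and 0.35% higher. That call was lost when any 1 of 8 of the 15 libraries was left out (Q20 female 2 or 4, Q20 male 1 or 4, WT female 1 or 3, WT male 3 or 4).

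Dnaja1 had a lowest, median and highest level of 174, 180.3 and 214 CPM in Q175, against 189, 212 and 242 CPM in WT and 174, 212 and 316 CPM in Q20. Dnaja1, a major cytosolic partner of Hspa8, fell by 0.27 ± 0.09 (log2 ± SE; adjusted p = 0.0415) against Q20 and was at -0.17 ± 0.10 against WT (adjusted p = 0.289). The groups overlapped, 11 of 16 fits that left out 1 library lost the call, and on FPKM its difference was 0.066. Dnajb1 (Hsp40), an inducible partner of Hspa1a, had 29.7, 30.4 and 33.4 CPM in Q175, against 30, 33.4 and 40.6 CPM in WT and 33.5, 37.6 and 50.7 CPM in Q20. Its Q175 libraries lay just below every Q20 library and overlapped WT. Dnajb1 was not called, at -0.18 ± 0.19 against WT (adjusted p = 0.608) and -0.33 ± 0.18 against Q20 (adjusted p = 0.235).

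Among the cochaperones, Stip1 and Ahsa1 fell against Q20 and Bag3 was not called. Stip1 had a lowest, median and highest level of 51.8, 56.1 and 70.9 CPM in Q175, against 51.4, 68 and 85.4 CPM in WT and 64.1, 75 and 89.8 CPM in Q20. Stip1, also called Hop, fell by 0.40 ± 0.10 (log2 ± SE; adjusted p = 0.00416) against Q20 and was at -0.22 ± 0.10 against WT (adjusted p = 0.183). Ahsa1 had a lowest, median and highest level of 47.3, 51.3 and 59.6 CPM in Q175, against 45.6, 61.2 and 73.4 CPM in WT and 53.1, 64.1 and 77.3 CPM in Q20. Ahsa1, which speeds the Hsp90 ATPase, fell by 0.31 ± 0.10 (log2 ± SE; adjusted p = 0.0296) against Q20 and was at -0.21 ± 0.10 against WT (adjusted p = 0.193). Stip1 and Ahsa1 overlapped between all groups, and the Ahsa1 call was lost in 7 of 16 fits that left out 1 library. Bag3, the Hsp70 release factor of selective autophagy, had 42.3, 48.7 and 68 CPM in Q175, against 48.4, 58.5 and 66.6 CPM in WT and 48.8, 57.5 and 70.2 CPM in Q20. It was at -0.13 ± 0.10 against WT (adjusted p = 0.438) and -0.17 ± 0.10 against Q20 (adjusted p = 0.266).

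None of the 6 cytosolic Hsp70 and Hsp110 genes, the 3 Hsp90 genes, the 2 small heat shock proteins or Hsf1 was called in either comparison by edgeR. At an unadjusted p under 0.05 this set held 0 members against WT and 1, the small heat shock protein Hspb8, against Q20, DESeq2 called 0 in both, and voom called 1 against WT and 5 against Q20. Hspa8 had a lowest, median and highest level of 766, 927 and 1173 CPM in Q175, against 671, 878 and 1536 CPM in WT and 669.5, 1027 and 1850.5 CPM in Q20. Hspa8 overlapped between all groups and was at -0.04 ± 0.15 against WT (adjusted p = 0.937) and -0.21 ± 0.14 against Q20 (adjusted p = 0.369). Hsp90ab1 had a lowest, median and highest level of 676, 745 and 835 CPM in Q175, against 563, 773 and 1060.0 CPM in WT and 673, 784 and 1053 CPM in Q20. Hsp90ab1 was at -0.07 ± 0.10 against WT (adjusted p = 0.727) and -0.11 ± 0.10 against Q20 (adjusted p = 0.528). Hsf1 averaged 22.8 ± 1.88 CPM in Q175, 22.3 ± 3.07 CPM in WT and 20.9 ± 3.95 CPM in Q20, with 0.03 ± 0.09 against WT (adjusted p = 0.888). Hspb8, a partner of Bag3, had 105, 127 and 138 CPM in Q175, against 109, 147 and 175 CPM in WT and 138, 155 and 214 CPM in Q20, with -0.18 ± 0.18 against WT (adjusted p = 0.591) and -0.36 ± 0.18 against Q20 (adjusted p = 0.183).

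The inducible Hspa1a and Hspa1b are near-identical neighbours whose RefSeq promoters differ at 4 of 300 bases, so reads may be split between them and they were also summed. The summed level had a lowest, median and highest value of 19, 29.4 and 38.8 CPM in Q175, against 11.9, 21.8 and 30.7 CPM in WT and 12.9, 22.4 and 40.2 CPM in Q20. The difference was 0.47 ± 0.34 against WT (adjusted p = 0.415) and 0.22 ± 0.33 against Q20 (adjusted p = 0.748), and the ranges overlapped widely. Hsph1, the Hsp110 that recharges Hsp70, had 23.9, 37.6 and 51.1 CPM in Q175, against 19.5, 31.2 and 58.4 CPM in WT and 17.6, 25.8 and 51.5 CPM in Q20, with 0.11 ± 0.24 against WT (adjusted p = 0.843). Hspa5, the Hsp70 of the endoplasmic reticulum also known as BiP, had 304, 343 and 468 CPM in Q175, against 273, 310.2 and 487 CPM in WT and 315, 376 and 549 CPM in Q20. It was at 0.12 ± 0.24 against WT (adjusted p = 0.821) and -0.14 ± 0.23 against Q20 (adjusted p = 0.783). The other members of these classes (Hspa4, Hspa4l, Hsp90aa1, Hsp90b1 and Hspb1) lay between -0.10 and 0.15 against WT and between -0.33 and 0.16 against Q20.

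Some cell type markers also differed in Q175. Macrophage markers (6 of 6 measured) summed to 926 to 1078 CPM with a median of 1023 in Q175, against 358 to 1107 CPM with a median of 568.3 in WT and 675 to 1302 CPM with a median of 746 in Q20. Progenitor markers (4 of 4) summed to 320.1 to 433 CPM with a median of 386 in Q175, against 158 to 348 CPM with a median of 199 in WT and 225 to 421 CPM with a median of 277 in Q20. Adipocyte markers (8 of 8) summed to 12979 to 21385 CPM with a median of 17356 in Q175, against 18746 to 27347 CPM with a median of 23703 in WT and 13107 to 31736 CPM with a median of 24790.2 in Q20. Of these, 4 macrophage and 3 progenitor markers rose in Q175 against WT (edgeR, adjusted p under 0.05). The adipocyte markers had a median log2 difference of -0.29 against WT, and 0 of 8 were called. Against Q20, 1 macrophage and 1 progenitor marker rose, and 0 adipocyte markers were called. All ranges of the sums overlapped. The part of cell makeup in the member differences was not tested.

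Epididymis and testis markers (11 of 11 measured) summed to 495 to 2843 CPM with a median of 1312 in Q175 males, against 0.604 to 25.7 CPM with a median of 1.48 in WT males and 0.0554 to 6446 CPM with a median of 2.01 in Q20 males. Without the libraries high in them, in an additive design, 6 members were called against WT and 9 against Q20, all lower. All 4 Q175 males are among those left out, so that fit has 4 female Q175 libraries alone, and it called 5.59% of all genes lower against WT and 8.99% against Q20. Transcript length moved too: genes called lower in Q175 against WT had a median length of 862 nt and those called higher 2281 nt. With each library's trend over length removed, 4 members fell against WT (Dnajc7, Pfdn1, Pfdn2 and Pfdn5) and 8 against Q20. The share of all genes called in that fit is not given here. The Pfdn1 difference was then -0.32 ± 0.07 against WT and -0.50 ± 0.07 against Q20.

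The calls also depended on the scale. On the authors' FPKM (log2 of FPKM + 0.1, limma-trend) 1 member was called against WT, Dnajc7, and 2 against Q20, Pfdn1 lower and Hsf1 higher (0.38 ± 0.11). FPKM moved the median of all genes to 0.17 against WT and 0.20 against Q20, and the member median lay 0.12 and 0.23 below it, where in CPM it lay 0.17 and 0.28 below. Centring each library on its median FPKM, a choice made after that result was seen, gave 7 and 10 members lower, but moved the median of all genes to -0.19 and -0.16. How many of all genes these FPKM fits called is not given here, so the counts describe the members alone. The sign of the smaller differences therefore depends on the scaling, while the member median lay below that of all genes in CPM and in FPKM. Centring moves the difference of every gene by the same amount, so it cannot change that gap.

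Against Q20, none of the 34 members was called in Q140, Q111 or Q80 (edgeR), where 0% of all genes were called. At an unadjusted p under 0.05 there were 2, 1 and 2 members in those lines, DESeq2 called 0 in each, and voom called 0 in Q140, 0 in Q111 and 1 in Q80. Along the series Pfdn1 averaged 33.8 ± 2.81 CPM (Q20), 31.5 ± 2.47 (Q80), 33.6 ± 2.39 (Q92), 33.5 ± 2.64 (Q111), 33.8 ± 4.4 (Q140) and 22.9 ± 1.64 CPM (Q175; SD, n = 8 each). Pfdn5 averaged 114 ± 8.42, 107 ± 8.93, 120.5 ± 12.7, 121 ± 17.7, 128 ± 21.9 and 85 ± 5.75 CPM in the same order. The means of both genes in Q80 to Q140 lay near those in Q20, and the Q175 means lay apart.

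The slope over the 6 knock-in lines, in log2 units per 100 repeats, was called negative for 8 members and positive for none, where 8.32% of all genes were called, 5.66% negative and 2.65% positive. At or above the lowest member's CPM 10.2% were negative and 4.06% positive, against 23.5% and 0% of the members. They were Pfdn1 (-0.27 ± 0.04, adjusted p = 2.28e-05), Pfdn5 (-0.16 ± 0.05, adjusted p = 0.0445), Stip1 (-0.21 ± 0.06, adjusted p = 0.0187) and 5 CCT subunits (Cct2, Cct3, Cct4, Cct5 and Cct7), of which Cct2 had the smallest p (-0.17 ± 0.04, adjusted p = 0.00608). Over Q20 to Q140, which leaves Q175 out, edgeR called no member (3 at an unadjusted p under 0.05; no other tool was run on this range), and the slopes were 0.0041 for Pfdn1 and 0.142 for Pfdn5. The share of all genes called over that range is not given here. For the slope over all 6 lines, leaving out 1 library gave between 2 members, without Q175 male 3, and 11. Over all genes, the calls then ranged from 1031 to 2449. Pfdn1 and Cct2 were called in each of those 48 fits.

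In Q92 against Q20, 1 member rose and none fell, where 6.11% of all genes were called, 5.91% higher and 0.208% lower. It was Hspa4l, an Hsp110 protein known from the testis. Hspa4l had 14.8, 20.2 and 284 CPM in Q92, against 17.9, 21.4 and 27.2 CPM in Q20, and rose by 1.11 ± 0.26 (adjusted p = 0.00708). A pair of libraries stood apart: Q92 male 1 had 284 CPM and Q92 male 4 had 118 CPM. The other Q92 libraries ran from 14.8 CPM (male 3) to 28.9 CPM (male 2), a range that reached slightly past that of Q20 at both ends. The testis genes Prm1, Prm2 and Tnp1, which package sperm DNA, were at 574.2, 1051 and 500.0 CPM in Q92 male 1 and at 260.2, 434 and 265 CPM in Q92 male 4. In these libraries Tcp1 reached 548 and 325 CPM, and Dnajb1 106 and 79.4 CPM. Without Q92 male 1 the Hspa4l call was lost, and without the 14 high-marker libraries its difference was -0.12 ± 0.14. Skeletal muscle markers also rose in Q92 against Q20, 5 of 6 called, with a median log2 difference of 7.43. They summed to 6835 CPM in Q92 female 1, 5450 CPM in Q92 male 1 and 2038 CPM in Q92 female 2. The part of muscle in the member differences was not tested.

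**Figure D3:**
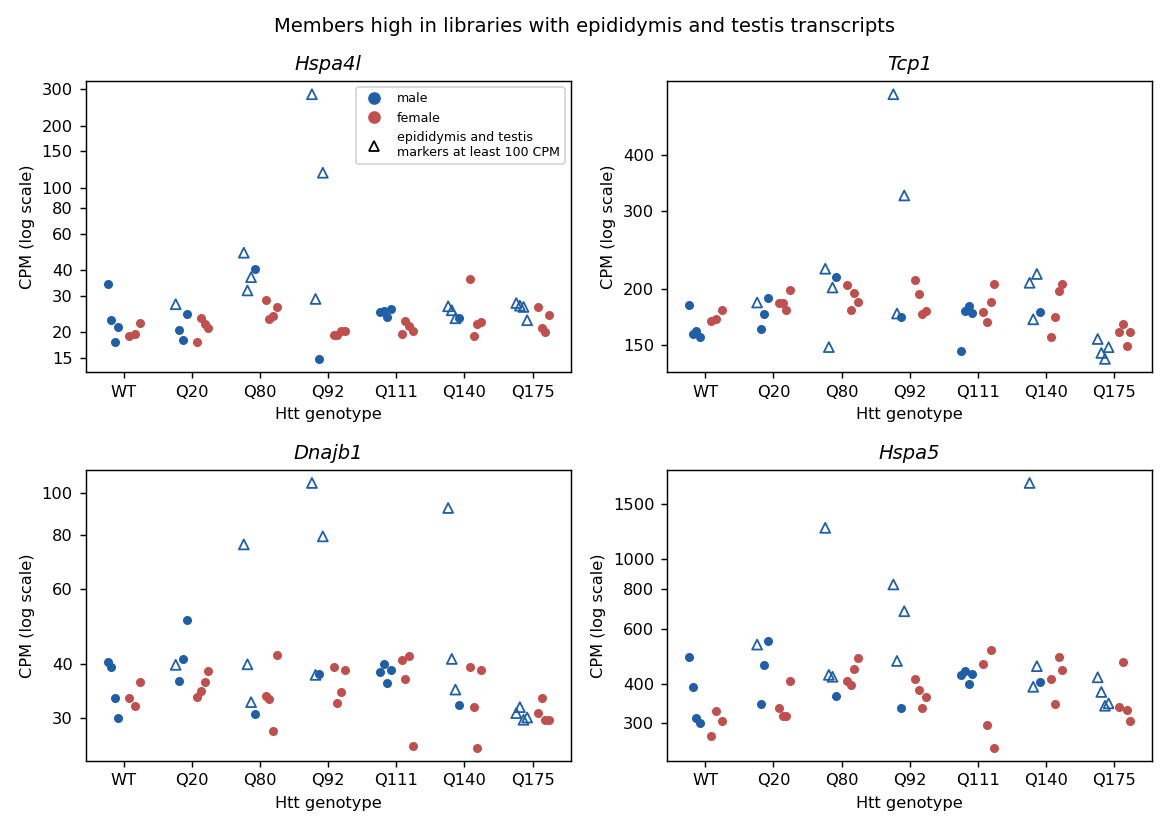
CPM on a log axis of Hspa4l, Tcp1, Dnajb1 and Hspa5 in every library by genotype, with males left of females and triangles for the 14 libraries whose epididymis and testis markers summed to at least 100 CPM. The highest Hspa4l values, 284 and 118 CPM, are triangles of Q92.

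Between the sexes 16 members were called, 6 higher and 10 lower in males, where 46.3% of all genes were called, 27.9% higher and 18.3% lower. Among genes at or above the lowest member's CPM 21.7% were higher and 25.4% lower, against 17.6% and 29.4% of the members. Over all libraries the mitochondrial chaperones were lower in males, of which the Hspe1 call alone held without the 14 high-marker libraries. Hspe1 had a lowest, median and highest level of 41.1, 64.2 and 121 CPM in males, against 56.5, 85 and 131 CPM in females, and fell by 0.40 ± 0.08 (log2 ± SE; adjusted p = 6.96e-05). Hspd1 fell by 0.26 ± 0.10 (log2 ± SE; adjusted p = 0.0277) and Hspa9 fell by 0.27 ± 0.09 (log2 ± SE; adjusted p = 0.0162). Of CCT, 5 subunits were lower in males (Cct2, Cct4, Cct5, Cct6a and Cct8; log2 differences of -0.18 to -0.09), as were Pfdn2 (-0.10 ± 0.04) and Pfdn4 (-0.16 ± 0.05). The sexes overlapped for every member. All 6 skeletal muscle markers were called lower in males, with a median log2 difference of -3.54, and their part in the member differences was not tested.

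Higher in males were Hspa4l, Hspa5, Dnajb1, Hsp90aa1, Bag3 and Dnajc7. Hspa5 had 299.9, 424 and 1752 CPM in males, against 249.9, 362 and 513 CPM in females, and was higher by 0.42 ± 0.13 (adjusted p = 0.00587). Hspa4l was higher by 0.56 ± 0.14 (adjusted p = 0.00143) and Dnajb1 by 0.31 ± 0.10 (adjusted p = 0.00879). Smaller differences were those of Bag3 (0.18 ± 0.05), Hsp90aa1 (0.19 ± 0.08), the inducible cytosolic Hsp90, and Dnajc7 (0.09 ± 0.03).

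Without the 14 male libraries with high epididymis or testis markers, in an additive design, 5 members were called. In that fit 13.8% of all genes were called higher and 13.4% lower. Bag3 stayed higher (0.20 ± 0.06), and Hspe1 (-0.27 ± 0.09), Cct4 (-0.16 ± 0.05), Cct5 (-0.14 ± 0.05) and Pfdn4 (-0.17 ± 0.06) stayed lower. Hspa4l was then at 0.15 ± 0.09, Hspa5 at 0.15 ± 0.09 and Dnajb1 at 0.08 ± 0.07, none of them called. Also no longer called were Hspd1 (-0.07 ± 0.09), Hspa9 (-0.12 ± 0.09), Cct2, Cct6a, Cct8, Pfdn2, Hsp90aa1 and Dnajc7. The split also turned with the scale: on log2(FPKM + 0.1) 11 members were higher and 2 lower, and with each library centred on its median 1 was higher and 15 were lower. Those scales put the median of all genes at 0.16 and -0.10. The shares of all genes called on them are not given here.

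**Figure D4:**
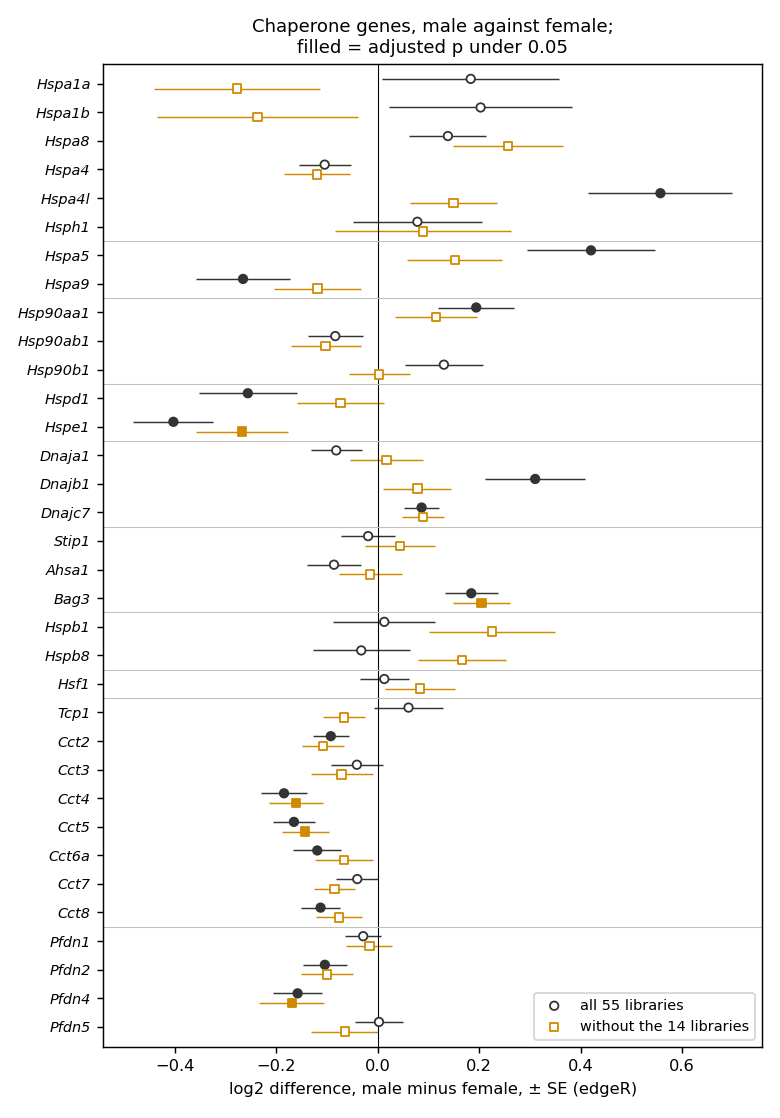
Log2 difference ± SE of each member, male minus female (edgeR), over all 55 libraries (circles) and without the 14 high-marker libraries (squares), filled where the adjusted p was under 0.05. Hspa4l is at 0.56 over all libraries and 0.15 without them, and Hspe1 is filled in both.

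Beyond the groups, some members varied with the inducible Hsp70 pair from library to library. Each library's deviation from its genotype and sex mean, on log2(CPM + 1), was set against that of the Hspa1a and Hspa1b sum for the other 32 members. This relation was examined over all 55 libraries first, where 7 members passed (permutation within groups, adjusted p under 0.05): Hspa5, Dnajb1, Hsp90b1, Hspa4l and Hsph1 with a positive relation, and Hspd1 and Hspa9 with a negative one. Libraries high in epididymis and testis markers stood apart in several of these genes, so the relation was then taken over the 38 libraries low in them whose group still held more than 1 library, a choice made after that result was seen. Over these 38 libraries in 10 groups 8 members passed, 7 positive and 1 negative, and 3 of them (Hsph1, Hspa5 and Hspa9) had passed over all 55. In all 64 relations were computed, adjusted within each set of 32. They were computed for members alone, so the share of all genes that would pass was not tested.

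Over the 38 libraries the members that varied most closely with the inducible pair were of the Hsp70 and Hsp90 systems. Hsph1 had r = 0.70 (permutation p = 0.00032, adjusted p = 0.00512) and rho = 0.66 (permutation p = 0.0005, adjusted p = 0.016). Without the 2 libraries farthest from the median, Q20 male 2 and Q92 female 2, its r was 0.67, and it was 0.64 within the block of 26 libraries and 0.88 within the block of 11. Hspa8 had r = 0.67 (permutation p = 0.00022, adjusted p = 0.00512) and rho = 0.60 (permutation p = 0.00103, adjusted p = 0.0165), with 0.62 without those 2 libraries and 0.60 and 0.90 within the blocks. Hsp90ab1 had r = 0.58 (permutation p = 0.00149, adjusted p = 0.0159) and rho = 0.55 (permutation p = 0.00355, adjusted p = 0.0233), with 0.55 without them and 0.47 and 0.89 within the blocks. Hspb1, Ahsa1, Hsf1 and Hspa5 also passed, with r between 0.49 and 0.57.

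Hspa9 went the other way, with r = -0.50 (permutation p = 0.00316, adjusted p = 0.0202) and rho = -0.47 (permutation p = 0.00774, adjusted p = 0.0413), but its r was -0.13 within the smaller block, so that relation was not seen there. Of the prefoldin members, which fell in Q175, none passed: their r lay between -0.27 (Pfdn1) and 0.11 (Pfdn5). The points share each library's depth and scaling factor.

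**Figure D5:**
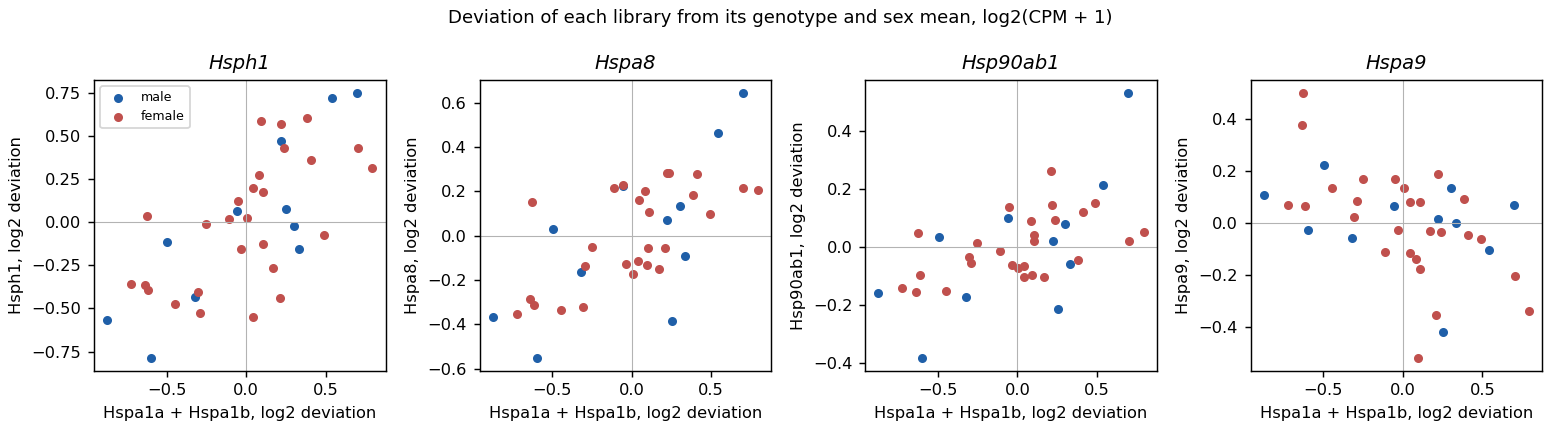
Deviation of each of 38 libraries from its genotype and sex mean on log2(CPM + 1), for the Hspa1a and Hspa1b sum (horizontal) and Hsph1, Hspa8, Hsp90ab1 and Hspa9 (vertical), males blue and females red. Hsph1 (r = 0.70) climbs with the pair and Hspa9 (r = -0.50) declines with it.

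Other genes of the same machinery were taken from a list of 58 chaperones and cochaperones that are not members. Of the 57 tested, 9 fell (15.8%) and 1 rose in Q175 against WT, where 7.1% of all genes and 12.2% of those at or above the lowest member's CPM fell. The list's median log2 difference was -0.09. Those with the smallest p were Bag1 (-0.63 ± 0.11, adjusted p = 0.000569), a nucleotide exchange factor of Hsp70, Stub1 (-0.59 ± 0.10, adjusted p = 0.000621), the chaperone-linked ubiquitin ligase CHIP, Pfdn6 (-0.39 ± 0.08, adjusted p = 0.00153), a further prefoldin subunit, and Dnajc19 (-0.49 ± 0.11, adjusted p = 0.00384), a J protein of mitochondrial import. Against Q20, 15 fell (26.3%) and 1 rose, where 9.7% of all genes and 17% at that level fell. The list's median was -0.19, and the smallest p were those of Bag1 (-0.66 ± 0.11, adjusted p = 4.81e-05), Pfdn6 (-0.44 ± 0.08, adjusted p = 8e-05), Txndc9 (-0.30 ± 0.06, adjusted p = 0.000416), which binds CCT, and Dnajc15 (-0.78 ± 0.18, adjusted p = 0.00216), a mitochondrial J protein. In Q92 against Q20, 5 rose (8.77%, against 5.91% of all genes) and none fell, led by Cct6b (2.17 ± 0.42, adjusted p = 0.00147), the testis form of a CCT subunit, and Hspa2 (1.55 ± 0.38, adjusted p = 0.00918), the testis Hsp70. The 2 libraries with the sperm transcripts described above are in that group, as are those with the highest skeletal muscle markers. The part of either tissue in these 5 was not tested. Between the sexes 17 were higher (29.8%) and 16 lower (28.1%) in males, against 27.9% and 18.3% of all genes and 21.7% and 25.4% at that level, led by Fkbp5 (1.56 ± 0.23, adjusted p = 8.17e-07), an Hsp90 cochaperone of steroid receptors.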

How the data were processed

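Messenger RNA of gonadal white fat was sequenced by the authors, with libraries prepared by standard Illumina protocols per the labels. The deposited table holds the authors' estimated counts per gene. The deposited FPKM values are the authors' own. For aligner, counter, genome build and annotation, nothing is given in the sources used here. The submitters' processing notes list CASAVA 1.8.2. Of the nonzero counts, 33.7% were not whole, and all were rounded.

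Counts of 55 libraries (35094442 to 51363637 per library, median 42009400) were filtered with filterByExpr over 14 groups of genotype and sex, scaled by TMM and tested with edgeR 4.0.16 (robust quasi-likelihood F test; R 4.3.3) in 1 fit, with Benjamini-Hochberg adjustment over 21113 genes. SE is the absolute log2 difference divided by the root of F. Alternatives used DESeq2 1.42.0 and limma 3.58.1, with limma also applied to log2 FPKM. Per-library CPM uses TMM-scaled totals. Members were matched by symbol to the RefSeq promoter table.

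Members were matched by protein family, with no measured value in the rule, but they and the lists were chosen with earlier results of these data known. All members were described; those called in a Q175 or Q92 comparison, and the member of each class with the highest mean CPM, are given in full, and other lists name at most 4 genes. Beyond genotype, sex and replicate, the labels hold a library number, an identifier, a lane and an index. Within each sex the Q175 libraries share an identifier prefix, as do the WT libraries, whose prefixes begin with Q20. What the prefixes stand for is not stated, nor whether libraries that share one are independent. The p-values therefore measure the spread between these samples. Scripts were tested on simulated data.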

Additional observations from a re-analysis of the deposited data

Results flagged for a closer look

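Single libraries stood far from the others of their genotype (Dixon's criterion at 95%) in 21 of 238 sets of 1 member and 1 genotype. Chance flags about 1 in 20 such sets, or 11.9 here. Values are CPM, with the next library's in brackets.

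Q140 male 1 held Hspa1a at 32.6 CPM (highest; nearest 10.1), Hspa5 at 1752 CPM (highest; nearest 486), Hsp90b1 at 1098 CPM (highest; nearest 540.3), Dnajb1 at 92.4 CPM (highest; nearest 41.2), Hspb1 at 28.2 CPM (lowest; nearest 45.9) and Hspb8 at 48.8 CPM (lowest; nearest 119.5). Q80 male 1 held Hspa5 at 1259 CPM (highest; nearest 483), Hsp90b1 at 834 CPM (highest; nearest 497) and Dnajb1 at 76 CPM (highest; nearest 42). Both are among the 14 libraries with high epididymis and testis markers, which summed to 27190.3 CPM in Q140 male 1 and 18310.4 CPM in Q80 male 1. The endoplasmic reticulum chaperones Hspa5 and Hsp90b1 stood out in both. The part of the markers in these values was not tested.

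WT male 1 held Hspa4l at 34.1 CPM (highest; nearest 22.8), Hsp90aa1 at 339.8 CPM (highest; nearest 250.3) and Hsp90b1 at 552 CPM (highest; nearest 406). Q175 female 2 held Hspa4 at 164 CPM (highest; nearest 137), Stip1 at 70.9 CPM (highest; nearest 59.4) and Cct3 at 102 CPM (highest; nearest 90.7). Q111 male 1 held Hspe1 at 43.5 CPM (lowest; nearest 64.8) and Cct7 at 95.7 CPM (lowest; nearest 115). Q111 female 4 held Dnajb1 at 25.8 CPM (lowest; nearest 36.3) and Pfdn5 at 160.0 CPM (highest; nearest 128). Q140 male 3 held Dnajc7 at 139 CPM (highest; nearest 111). Q20 male 4 held Hspb8 at 214 CPM (highest; nearest 166).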

How the results depend on the processing

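The members called moved by more than 1.5 times under these settings, whose cause was not tested. Calls over all genes are set beside these counts only for the fits that left out 1 library. For the other settings, whether the calls over all genes moved likewise is not given here. Q175 against WT (8): 0 in males alone and for the female effect in the fit of all, 1 on log2(FPKM + 0.1) and on log2(FPKM + 1), 3 for the male effect in it, 4 at an adjusted p under 0.01, with no filter, with lane as a factor, without the length trend and in females alone, 17 by voom. Q175 against Q20 (14): 1 in males alone, 2 on log2(FPKM + 0.1) and on log2(FPKM + 1), 3 for the female effect in the fit of all, 4 for the male effect in it, 6 at an adjusted p under 0.01, 7 with no filter and in females alone, 8 without the length trend, 9 without the high-marker libraries, 26 by voom. Q92 against Q20 (1): 0 on centred FPKM, with lane as a factor, without the high-marker libraries, in females alone and with only the groups compared, 2 with RLE factors, with a mean of at least 1 CPM, by DESeq2, on log2(FPKM + 0.1), on log2(FPKM + 1), without the 2 contradicting Q140 libraries, in an additive design and in males alone, 5 by voom. Q80 against Q20 (0): 1 by voom. Q20 against WT (1): 0 at an adjusted p under 0.01, with no filter, on centred FPKM, with lane as a factor and with only the groups compared, 4 by voom. Slope (8): 0 over Q20 to Q140, 1 on centred FPKM, for the female effect in the fit of all and for the male effect in it, 2 at an adjusted p under 0.01, with no filter, on log2(FPKM + 0.1), on log2(FPKM + 1) and with lane as a factor, 4 without the 2 contradicting Q140 libraries and without the length trend, 5 with RLE factors and without the high-marker libraries, 15 over Q80 to Q175, 21 by voom. Male against female (16): 5 without the high-marker libraries, 8 at an adjusted p under 0.01, 10 with lane as a factor. Sex difference in slope (0): 3 by voom. Leaving out 1 library gave 4 to 8 against WT (4 without Q175 male 3 or WT female 1; 5 without Q175 female 4, Q175 male 4, WT female 3 or WT male 3), 7 to 15 in Q175 against Q20 (7 without Q175 male 3), 0 to 2 in Q92 (0 without Q92 male 1, 2 without Q92 male 2 or 3), 0 to 1 in Q20 against WT, 2 to 11 for the slope, 13 to 17 for sex and 0 to 0 in the other 5. For the slope 3 were left without Q175 female 4 or Q20 male 4, and 4 or 5 without any 1 of Q175 female 1 or 3, Q175 male 1, 2 or 4, Q20 female 1, 2 or 4, Q20 male 3, Q140 female 1, Q140 male 1, Q111 male 1 or Q92 male 4. Over all genes, leaving out 1 library gave 1074 to 2799 calls against WT (2204 with all libraries) and 2246 to 3514 in Q175 against Q20 (3006). It gave 193 to 2605 in Q92 (1291) and 71 to 354 in Q20 against WT (159). For the slope it gave 1031 to 2449 (1756) and for sex 9052 to 10296 (9770). Pfdn1 against Q20 was called in 20 of 20 settings, Dnajc7 against WT in 18 of 20, and Cct8 against WT in 5.

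Signs that turned: on log2(FPKM + 0.1) and log2(FPKM + 1), Cct8 was at 0.009 and 0.0088 in Q175 against WT and at 0.0281 and 0.0276 against Q20, and Dnaja1 at 0.066 and 0.065 against Q20. Between the sexes Cct2 was then at 0.0335 and 0.0331, Cct6a at 0.0032 and 0.0031, Cct8 at 0.0248 and 0.0243 and Pfdn2 at 0.0951 and 0.092, and Dnajc7 was at -0.0934 on centred FPKM. Hspa4l in Q92 was at -0.118 without the high-marker libraries and -0.0791 in females. The slopes over Q20 to Q140 were 0.0041 for Pfdn1 and 0.142 for Pfdn5.

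With the replicate number as a block, 8, 14, 1, 1, 9 and 16 members were called in Q175 against WT, Q175 against Q20, Q92 against Q20, Q20 against WT, the slope and sex. The numbers do not pair libraries: deviations of same-numbered libraries correlated with a median of 0.008 (-0.787 to 0.814 over 351 pairs), and 14 of 55 libraries correlated best with their own number. Depth limits the members with the fewest counts most (lowest mean 8.22 CPM).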

Other observations

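The slope over repeat length differed between males and females for none of the 34 members by edgeR (3 at an unadjusted p under 0.05, 0 by DESeq2 and 3 by voom).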
